A study of Mus musculus with 16 samples.

Results

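Ribosome footprints of 3 clones of mouse hepatoma cells without exon 5 of Eef1d were compared with those of WT cells to find the changes that the clones had in common. The cells were Hepa1-6, a line from a mouse liver tumour, and each clone (KO1, KO2 and KO3) was grown from 1 cell after Cas9 cutting on both sides of exon 5. The guide pair was pS1 and pS4 for KO1 and KO2, and pS2 and pS4 for KO3, and the study selected clones homozygous for the deletion. WT cells were 1 unedited line, and all 4 lines shared 1 culture medium. Each line had 2 Ribo-seq libraries, so 8 of the 16 libraries of the series were used, and the other 8 were RNA-seq libraries of the same lysates. For each of the 22392 gene symbols of the count table, the transcript with the largest total count was kept. The clone was the unit of replication. A gene belonged to the common set where its log2 footprint change against WT had the same sign in KO1, KO2 and KO3. Of the 10763 genes with enough counts to be tested in each clone, 3038 (28.2%) did, 1607 of them higher and 1431 lower in the clones. The 3 clones were compared with the same 2 WT libraries, so their signs are not independent.

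EEF1D is a subunit of the EEF1B complex, which exchanges the nucleotide on EEF1A1 so that this elongation factor can bring the next aminoacyl-tRNA to the ribosome. Its partners are the exchange factor EEF1B2, the scaffold EEF1G and the valyl-tRNA synthetase VARS. The exon 5 segment is studied as the part of EEF1D that binds kinectin (KTN1), a protein of the ER membrane. A footprint is the piece of mRNA that a ribosome protects from RNase, and the count of footprints on a coding sequence rises with the amount of mRNA and with the number of ribosomes on each mRNA.

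Sequences are shown for the deleted exon, because it is what the clones share, and for the stretch before the start of the Rhox5 transcript, because Rhox5 was the gene called with clones as units. The exon lies at chr15:75900691-75900762 (GRCm38, the mm10 build of the counts) on the minus strand, is a coding exon, and is 72 bases long. The Rhox5 stretch is the 100 bases before the start of the counted transcript, chrX:37804742-37804841 (GRCm38, plus strand), and a gap in the assembly lies directly before it. Capitals mark CG dinucleotides there, of which it held 2.
Eef1d exon 5: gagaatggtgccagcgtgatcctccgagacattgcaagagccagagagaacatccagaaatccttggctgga
Rhox5: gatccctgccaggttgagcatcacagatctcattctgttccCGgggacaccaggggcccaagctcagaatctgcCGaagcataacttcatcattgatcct

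Total counts of the Ribo-seq libraries ranged from 2604223 to 11147904, with the smallest and the largest both from KO1. Counts were summed over the whole coding sequence of the transcript kept for each gene, and the loss of exon 5 itself was not tested. Of the 16 hepatoma marker genes, Alb, Afp and Apoe were abundant in WT cells. Of these 16, 3 had under 10 counts over the 8 libraries, among them Ahsg with none. The summed level of these markers was 6757 to 7045 CPM (counts scaled to a common library size with TMM factors) in WT cells, 2310 to 2503 in KO1, 5905 to 6099 in KO2 and 8986 to 9778 in KO3. Of 30 markers of leukocytes, endothelium, fibroblasts, bile duct and muscle, 17 had under 10 counts, and 11 of these 17 had none. The sum of the 30 was 2382 to 2416 CPM in WT cells, 2519 to 2544 in KO1, 2118 to 2216 in KO2 and 3140 to 3246 in KO3. Most of that sum was Dcn, the matrix proteoglycan decorin, at 1795 to 2707 CPM in every library, while Krt7, a keratin of bile duct, had 56.2 to 59.8 CPM in WT cells, 8.10 to 20.5 in KO1, 153 to 157 in KO2 and 321 to 357 in KO3. The part of these marker differences in the results was not tested.

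With clones as units, footprints of 1 gene fell and those of 0 genes rose. The fallen gene was Rhox5, a homeobox gene of the reproductive homeobox cluster of the X chromosome. This was edgeR's quasi-likelihood test of the 3 clone sums against the 2 WT libraries, with Benjamini-Hochberg adjusted p under 0.05, over 11115 genes, so 0.009% of genes were called lower and 0% higher. At an unadjusted p under 0.05 there were 171 genes (1.54%), a share below the threshold itself, so small p-values were not in excess. DESeq2 called 4 genes, all lower (Rhox5, Gstm7, Capg and Renbp). WT was 1 line, so the spread between WT lines was not measured.

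Rhox5 had 906 and 554 footprints in the WT libraries. KO1 had 7 and 1, KO2 had 1 and 5, and KO3 had 1 and 1. All 6 KO libraries therefore lay far below both WT libraries, at 0.246 to 1.68 CPM against 229 and 253 CPM. Scaled for depth, the summed count was 0.538% of WT in KO1 (95% exact interval 0.232 to 1.06, counting error only), 0.354% in KO2 (0.13 to 0.772) and 0.113% in KO3 (0.0137 to 0.41). The log2 change common to the clones was -8.21 (SE 0.367, edgeR adjusted p = 0.00232). RNA of Rhox5 behaved alike, at 149 and 166 CPM in the WT libraries and 0.0819 to 1.12 CPM in the KO libraries. In bulk libraries, fewer cells that express a gene and less RNA per cell cannot be told apart. Rhox5 was also the 1 gene of 12071 called for RNA with clones as units (log2 change -8.40, edgeR adjusted p = 0.0186, 0.00828% of genes). The test that the 3 clones were equal in footprints missed its threshold for Rhox5 (edgeR adjusted p = 0.135).

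The call for Rhox5 needed every WT library and KO2. Without WT replicate 1 the adjusted p was 0.0848, without WT replicate 2 it was 0.0751, without KO2 it was 0.0889, and with WT as 1 unit it was 0.0761, while the log2 change stayed between -8.28 and -8.13. Rhox5 lies at chrX:37804842-37808876. Upstream of it in the same cluster, the 8 Rhox2 genes (Rhox2a to Rhox2h) had footprints too, and these near-identical genes may share reads. Rhox2h, the one with most counts, had 83 and 60 in WT cells. KO1 had 164 and 33, KO2 111 and 97 and KO3 7 and 2. It fell in KO3 (log2 change -4.22, edgeR adjusted p = 9.41e-14) and missed the threshold in KO1 (0.42, adjusted p = 0.0649) and KO2 (0.33, adjusted p = 0.235). A lower level in KO3 was called for each of the 8 Rhox2 genes.

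Each clone taken alone differed from WT in many genes, and the clones differed from each other too. In a fit of the 8 libraries, in which the error is the spread between the 2 libraries of a line, footprints of 2837 genes (26.4% of 10763) changed in KO1. In KO2 1255 genes (11.7%) changed, and 3104 genes (28.8%) changed in KO3. The test that the clones were equal was rejected for 6404 genes (59.5%). The median absolute log2 change against WT was 0.256 for KO1, 0.185 for KO2 and 0.253 for KO3. Between clones it was 0.301 for the pair KO1 and KO2. The pair KO1 and KO3 stood at 0.368, and KO2 against KO3 at 0.293. The mean change of the 3 clones had a median size of 0.141, the SD between clones one of 0.281, and the difference between the 2 WT libraries one of 0.151.

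**Figure D1:**
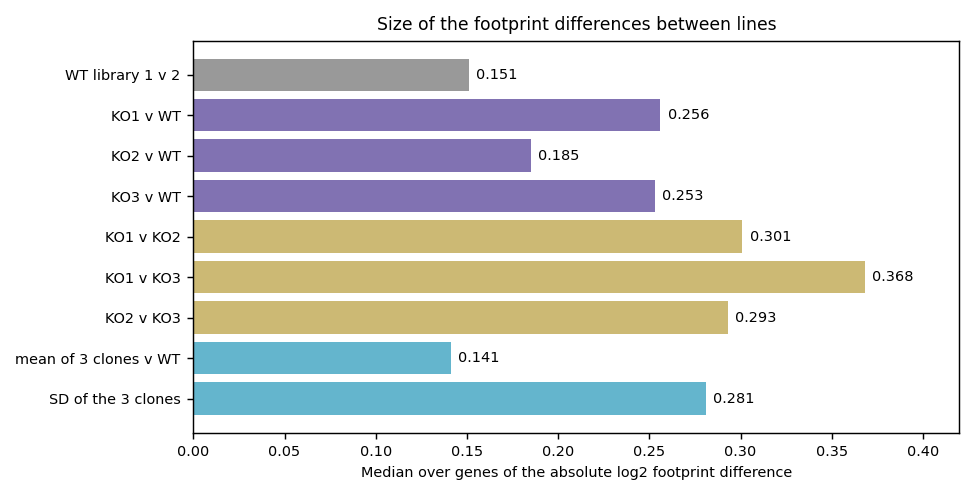
Median over genes of the absolute log2 footprint difference, on a linear axis from 0, for the 2 WT libraries (grey), each clone against WT (purple), pairs of clones (yellow), and the mean and SD of the 3 clones' changes (blue). The differences between clones, 0.293 to 0.368, were longer bars than the changes against WT, 0.185 to 0.256.

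A gene could also be called in each clone. This held for 310 genes, of which 231 had directions that differed between clones. The other 79 had the same direction throughout, with 22 higher (0.204% of genes) and 57 lower (0.53%). Among the 79, the test that the clones were equal was rejected for 38 genes, 7 of the higher and 31 of the lower ones. Of all genes tested, 345 (3.21%) had all 6 KO libraries above both WT libraries in CPM and 372 (3.46%) had all 6 below. All 22 higher genes and 56 of the 57 lower genes were among them, with Pglyrp1 the exception. Coding sequences of the 57 lower genes had a median of 314 codons and those of the 22 higher genes 636, beside 450 over all genes tested. Their median mean counts per library were 113 and 201, beside 94.2 over all genes. The lower genes include a cluster of Lce1 genes of 128 to 140 codons that may share reads (described below). The 57 are therefore not separate observations, and their median length is weighted by this cluster.

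From here on, named genes were ranked by the smallest of their 3 clone changes, among genes whose KO libraries did not overlap WT and whose mean count was at least 50 per library in the higher group, that is in WT for lower genes and in the KO libraries for higher ones. This rule was met by 248 higher and 252 lower genes, and the first 12 of each direction were taken. Because the ranking used the changes against WT, these changes are given as a description. Beside Rhox5, none of the 24 was called with clones as units by edgeR.

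Gstm7, a glutathione S-transferase of the mu class, which joins glutathione to foreign compounds, ranked next to Rhox5. It had 67 and 54 footprints in WT cells, with KO1 at 16 and 5, KO2 at 15 and 2 and KO3 at 22 and 8. The clones thus kept 17.1%, 12.1% and 20.5% of the WT level, and the test that they were equal missed its threshold (edgeR adjusted p = 0.358). With clones as units the log2 change was -2.61 (SE 0.302, edgeR unadjusted p = 8.24e-05, adjusted p = 0.458), and DESeq2 called it (adjusted p = 2.97e-05). RNA was lower by -2.92 in KO1, -3.75 in KO2 and -3.03 in KO3 on the log2 scale. Of its neighbours on chromosome 3, Gstm6 was lower in all clones too (-0.16, -1.27 and -0.40) but was called in KO2 alone (edgeR adjusted p = 0.0173), and Gstm1 and Gstm5 were not lower in all clones. Gstm1, another mu class enzyme, fell in KO1 (-0.68) and KO2 (-1.59) and had 0.13 in KO3, and Gstm5 fell in KO3 (-0.69) with 0.12 in KO1 and 0.47 in KO2.

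Capg, which caps the ends of actin filaments, had 175 and 99 footprints in WT cells, against 14 and 9 for KO1, 76 and 33 for KO2 and 25 and 23 for KO3. It fell in each clone, to 8.25%, 34.2% and 14.5% of WT, and the clones differed from each other (edgeR adjusted p = 2.11e-06). Tff2, a small secreted trefoil peptide of mucous surfaces, had 131 and 108 footprints in WT cells. KO1 had 56 and 18, KO2 7 and 14 and KO3 7 and 4. Its level was 30.4% of WT in KO1, 7.56% in KO2 and 3.81% in KO3, which also differed between clones (edgeR adjusted p = 2.47e-08). Both genes were therefore low in every clone by amounts that were not the same.

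In Slc38a4, Slc6a13, Plb1 and Masp1 the footprints were far lower in KO3 than in the other clones. Slc38a4, an amino acid transporter of liver that is imprinted in the mouse, had 87 and 62 footprints in WT cells, with KO1 at 57 and 13, KO2 at 58 and 54 and KO3 at 1 and 0. Its log2 change was -1.11 (SE 0.21) in KO1 and -0.63 (SE 0.187) in KO2, while the single KO3 count was 0.555% of WT (95% exact interval 0.014 to 3.14). With clones as units the change of Slc38a4 was -1.45, and -0.86 (SE 0.241) without KO3. Slc6a13, a GABA and taurine transporter, had 95 and 62 footprints in WT cells, against 34 and 12 for KO1, 64 and 33 for KO2 and 3 and 1 for KO3. The test that the clones were equal was rejected for both, and for Plb1 and Masp1.

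Plb1, a phospholipase, and Masp1, a protease of the lectin pathway of complement, were the other two. Plb1 had 78 and 66 footprints in WT cells. KO1 had 57 and 13, KO2 30 and 21 and KO3 9 and 2. Masp1 had 84 and 55 in WT cells, with KO1 at 73 and 21, KO2 at 54 and 48 and KO3 at 12 and 11. The RNA of Masp1 did not follow in KO2, where its log2 change was 0.00 beside -0.43 in KO1 and -2.57 in KO3. Its common footprint change of -1.07 became -0.63 (SE 0.19) without KO3. Fgb, the fibrinogen beta chain, was at 69.0 and 60.3 CPM in WT cells, against 22.3 and 29.0 for KO1, 8.27 and 11.1 for KO2 and 44.3 and 38.2 for KO3. Its loss was deepest in KO2 (log2 change -2.78, SE 0.175) and shallowest in KO3 (-0.65, SE 0.128). Gpr155, a membrane protein of lysosomes, had 42.7 and 35.5 CPM in WT cells. KO1 had 24.7 and 28.2, KO2 27.1 and 24.5 and KO3 15.0 and 13.5. Its common log2 change of -0.85 was -0.28 (SE 0.309) when libraries were thinned to the smallest.

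**Figure D2:**
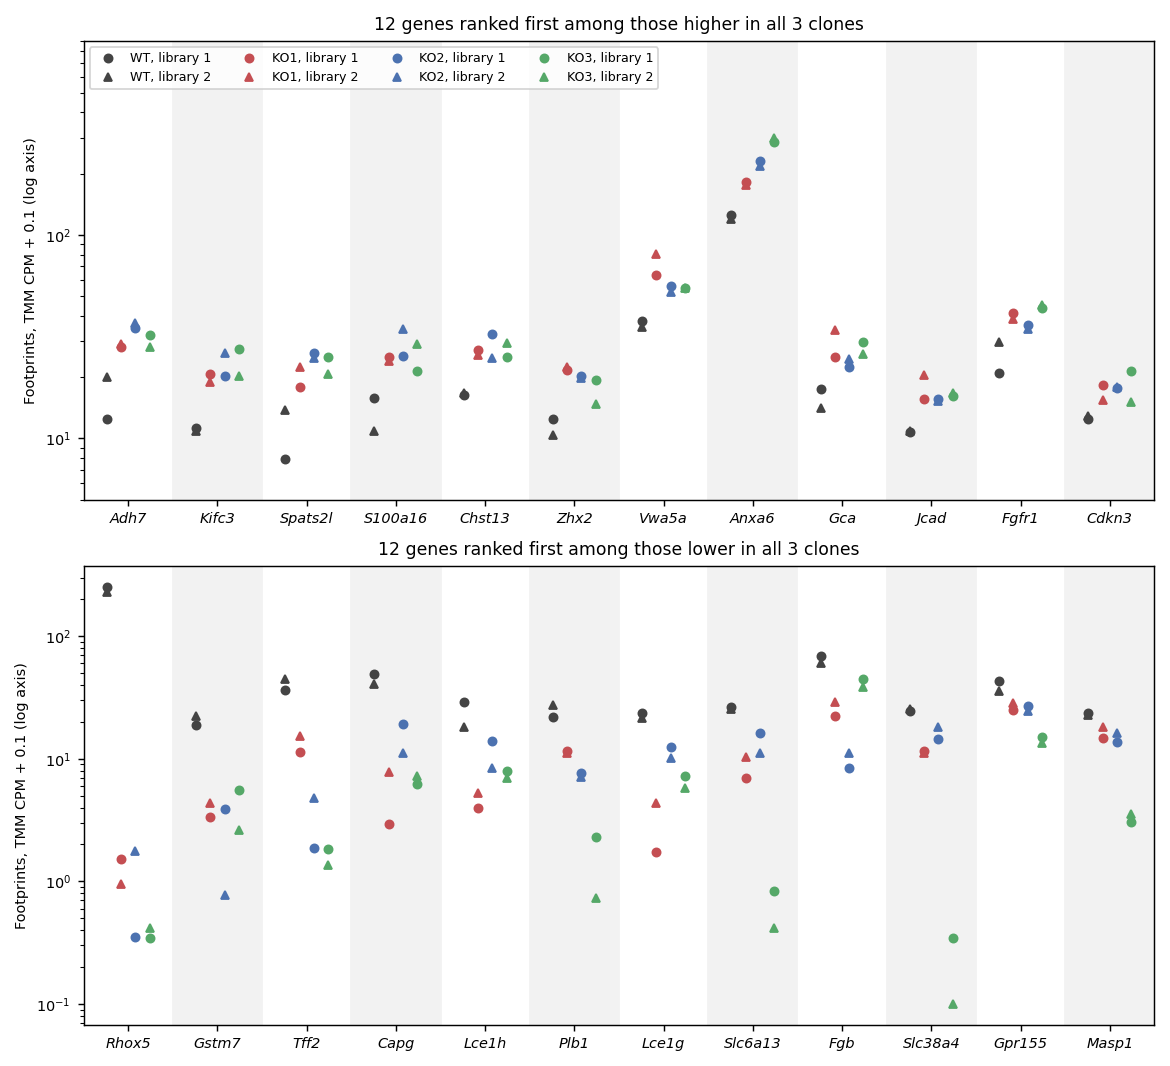
Footprint levels in TMM-scaled CPM plus 0.1, on a log axis, of the 12 genes ranked first among those higher (top) and lower (bottom) in all clones, with 1 point per library, circles for library 1 and triangles for library 2. Every KO point lies beyond both WT points of its gene, and the lower genes span more than the higher ones, from Rhox5 at no more than 1.68 CPM in all KO libraries to Fgb at 8.27 to 44.3 CPM.

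A cluster of Lce1 genes on chromosome 3, which encode late cornified envelope proteins of skin, had fewer footprints in the clones. Of the 57 genes that fell in each clone, 12 were on chromosome 3, which held 533 of the 10763 genes tested. Of these 12, 9 carry a Lce1 name (Lce1a1, Lce1a2, Lce1b, Lce1c, Lce1e, Lce1g, Lce1h, Lce1i and Lce1j), with Gm38119 lying between them. These genes are near-identical in sequence and may share reads, so they are not separate observations. Lce1h had 104 and 44 footprints in WT cells, with KO1 at 19 and 6, KO2 at 55 and 25 and KO3 at 32 and 22. Lce1g had 84 and 52 in WT cells, against 8 and 5 for KO1, 49 and 30 for KO2 and 29 and 18 for KO3. Both were lowest in KO1 and highest in KO2 among the clones, and none of these libraries reached a WT CPM. Lce1d and Lce1f, with 0 to 15 footprints per library, were called in KO1 (-4.14 and -3.26) and, for Lce1f, in KO3 (-1.17), but in neither case in KO2 (-0.69 and -0.95). Lce1k, Lce1l and Lce1m were too scarce to be tested in each clone, and at 0 to 6 footprints per library Lce1l and Lce1m did not stand apart from WT. With clones as units Lce1k had a log2 change of -2.04 (edgeR unadjusted p = 0.0872). Lce1g and Lce1h had RNA, with Lce1g at 7.46 and 5.62 CPM in WT cells and 0.657 to 4.47 in the clones, and Lce1h at 5.82 and 4.34 against 1.13 to 2.36. The other 7 and Gm38119 had 0 to 0.273 RNA CPM in every library, WT included, and no RNA test.

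Of genes called in each clone but too scarce for the ranking, Renbp and Rgs5 had the largest changes, and were chosen here after their values were seen. Renbp, an epimerase of amino sugars, had 26 and 12 footprints in WT cells. KO1 had 1 and 0, KO2 2 and 1 and KO3 0 and 1. Its log2 change with clones as units was -4.53 (SE 0.627), with an edgeR unadjusted p of 0.000243. Rgs5, a regulator of G protein signalling, had 24 and 12 in WT cells, with KO1 at 4 and 0, KO2 at 2 and 1 and KO3 at 0 and 0. Such counts of 0 to 4 per library fix a low level, not its exact value.

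The higher genes changed less, with a log2 change of at most 1.32 in any clone among the 12. Adh7, an alcohol dehydrogenase that also oxidizes retinol, had 12.3 and 19.8 CPM in WT cells, against 28.1 and 29.0 for KO1, 34.8 and 36.9 for KO2 and 32.2 and 27.9 for KO3. Its level was 185%, 233% and 198% of WT, but its 2 WT libraries lay far apart, and the common log2 change of 0.98 became 0.67 without WT replicate 1. Kifc3, a kinesin that moves toward the minus ends of microtubules, had 11.2 and 10.7 CPM in WT cells. KO1 had 20.7 and 18.8, KO2 20.1 and 26.2 and KO3 27.3 and 20.0. Its common log2 change was 1.02 (SE 0.206, edgeR unadjusted p = 0.00203, adjusted p = 1), and the KO libraries of both genes stayed above the higher WT library.

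Anxa6, an annexin that binds membranes in the presence of calcium, had the most counts of the 12 and differed between the clones. It had 125 and 120 CPM in WT cells, with KO1 at 181 and 175, KO2 at 232 and 219 and KO3 at 287 and 298. The log2 change was 0.54 (SE 0.085) in KO1, 0.88 (SE 0.0795) in KO2 and 1.25 (SE 0.0772) in KO3 (adjusted p of the clone difference by edgeR = 4.63e-10). RNA changes were of like size, at 0.63, 0.88 and 1.31. Vwa5a, with 37.4 and 35.1 CPM in WT cells and 52.3 to 80.2 CPM in the clones, was the other higher gene whose clones differed (edgeR adjusted p = 0.0282).

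Zhx2, a transcription factor known in mouse liver for holding Afp down after birth, had 12.3 and 10.3 CPM in WT cells, against 21.7 and 22.2 for KO1, 20.1 and 19.8 for KO2 and 19.2 and 14.7 for KO3. It rose in each clone by the 8-library fit (0.92, 0.79 and 0.58), whereas Afp, the fetal serum protein alpha-fetoprotein, fell in KO1 (-0.90) and KO2 (-0.29) and rose in KO3 (0.64). Fgfr1, a receptor for fibroblast growth factors, had 20.9 and 29.7 CPM in WT cells. KO1 had 41.1 and 38.4, KO2 35.8 and 34.2 and KO3 43.6 and 45.1. Fgfr1 thus stood above WT in all clones, with log2 changes of 0.72, 0.51 and 0.85, and its common change of 0.66 was 0.43 (SE 0.283) without WT replicate 1.

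Spats2l, S100a16, a calcium-binding protein, and Chst13, a sulfotransferase of chondroitin, also rose in each clone by the 8-library fit. Their smallest changes were 0.88, 0.86 and 0.70. Spats2l had WT libraries that lay apart, at 7.82 and 13.6 CPM, and its common change of 1.08 was 0.72 (SE 0.344) without WT replicate 1. The remaining 3 of the 12 were not called in all clones. Gca, a calcium-binding protein of granulocytes, missed the threshold in KO2 (0.54, edgeR adjusted p = 0.0622), as did Jcad, a protein of cell junctions (0.52, adjusted p = 0.134). Cdkn3, a phosphatase of cyclin-dependent kinases, passed it in KO3 alone (0.57, adjusted p = 0.041). At the edge of the ranking, Cdkn3 had a smallest change of 0.49, and Mier2 (0.47) and Ctdsp1 (0.46) were the next outside. On the lower side Masp1 stood at 0.58 inside, and Dock5 (0.56) and Angptl4 (0.55) outside.

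The remaining genes called in each clone are given by role, with those given values chosen after their values were seen. Of all 79 genes called in each clone in 1 direction, 45 were still called so once chromosome medians were removed. Those that lost the call are named with the chromosomes. Of secreted proteins, Igfbp1, which binds insulin-like growth factors, fell by 2.11 in KO1, 0.67 in KO2 and 0.49 in KO3 on the log2 scale. Angptl4, an inhibitor of lipoprotein lipase, fell by 1.14, 0.55 and 1.13, and the glycoprotein hormone Stc1 fell by 1.93, 0.37 and 1.07. Aldh2, the mitochondrial aldehyde dehydrogenase, had a fall of like size in the clones, of 0.52, 0.45 and 0.48, and 2437 and 1641 footprints in the WT libraries. Its clones were not shown to differ (edgeR adjusted p = 0.655), and with clones as units its log2 change was -0.48 (SE 0.107, unadjusted p = 0.00326). Trp53inp1, an autophagy protein induced by p53, fell by 0.68, 0.49 and 0.79.

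Of 29 lysosomal genes tested, 3 were higher and 5 lower in all clones. The cathepsins Ctsd and Ctsl fell in each clone, Ctsd by 0.29, 0.22 and 0.23, and Ctsl by 1.97, 0.19 and 0.66, while the membrane protein Lamp1 rose by 0.26, 0.27 and 0.20. Ctsd, Lamp1, and Gm49369 and Marc2 below did not keep their direction in all clones once chromosome medians were removed (described with the chromosomes). Gm49369, whose interval overlaps the locus of Ctsd, fell by 0.29, 0.23 and 0.28, and reads of the pair may be shared. Fasn, the fatty acid synthase, fell by 0.22, 0.27 and 0.23, and Odc1, the first enzyme of polyamine synthesis, by 0.38, 0.31 and 0.60. Among the higher genes, Serpinb7 rose by 0.62, 0.36 and 1.66, and Marc2, a mitochondrial reductase, by 0.73, 0.25 and 0.66. Plp2 and Gm6169, both 143 codons long, rose by nearly the same amounts (0.24, 0.43 and 0.47 against 0.27, 0.43 and 0.49). RNA of neither was called in any clone. For Plp2 the RNA changes were -0.16, 0.10 and 0.16 (edgeR adjusted p of 0.0882 or more). RNA of Gm6169 was at 1.39 to 2.79 CPM over all libraries (edgeR adjusted p of 0.641 or more). Shared reads of the pair were not tested.

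Of regulators of transcription, Fosl2, an AP-1 protein, fell by 0.44, 0.43 and 0.82, Elk3, an ETS factor, by 0.73, 0.63 and 0.36, and Jmjd1c by 0.95, 0.38 and 0.42. Arid5b, Pcgf1 and Gtf3c1 fell in each clone too, while Sin3b, a corepressor, rose by 0.27, 0.47 and 0.30. Of signalling genes, Socs2, an inhibitor of cytokine signalling, fell by 1.82, 1.31 and 1.31, with 40 and 16 footprints in WT cells. The kinase Sgk1 fell by 0.26, 0.59 and 0.19, and the calcium channel of the ER Itpr3 by 0.56, 0.33 and 0.24. Tmem252, with 1590 and 977 footprints in WT cells, fell by 1.16, 0.55 and 1.31 and differed between clones (edgeR adjusted p = 4.82e-11). Lgals3, a galectin, fell by 0.72, 0.27 and 0.43, and the receptor Gprc5a by 0.84, 0.23 and 0.41.

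The aldo-keto reductases Akr1c12 and Akr1c13, neighbours on chromosome 13 that may share reads, fell by 0.61, 0.39 and 0.42 and by 0.51, 0.32 and 0.36. Pitrm1, a mitochondrial peptidase, fell by 0.22, 0.22 and 0.21. The vesicular glutamate transporter Slc17a6 fell by 3.28, 1.52 and 1.65, with 33 and 17 footprints in WT cells. Efcc1, Tsen34, Sgms1, Pvr, Tmem171, Vta1, Ifitm3, Dock5 and Pglyrp1 complete the lower genes. Among the higher ones Ptgfrn, a partner of tetraspanins, rose by 0.54, 0.41 and 0.41, Colgalt1, a galactosyltransferase of collagen, by 0.29, 0.40 and 0.28, and Rab11fip5, which binds the recycling GTPase RAB11, by 0.37, 0.37 and 0.48. Gse1, 9930111J21Rik1, Sorbs2 and Lsm4 complete the higher genes.

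Changes of footprints went with changes of RNA. Of the 79 genes called in each clone in 1 direction, 71 were also tested for RNA, and RNA had the footprint's direction in all clones for 64 of them. Over all 11755 genes tested for RNA, 24% had 1 RNA direction in the 3 clones. RNA was called in each clone in the footprint's direction for 50 of the 71, beside 1.51% of all genes called for RNA in each clone in 1 direction, and 43.5%, 21% and 42% called in KO1, KO2 and KO3 singly. RNA and footprints came from the same lysates, so they are not separate samples. The median footprint and RNA changes of the higher genes were 0.58 and 0.46 for KO1, 0.49 and 0.38 for KO2, and 0.62 and 0.56 for KO3. Those of the lower genes were -0.99 and -0.74, -0.61 and -0.46, and -0.82 and -0.61. Footprints relative to RNA, tested as the interaction of genotype and assay with clones as units, were called for 0 of 11887 genes (0%) by edgeR, with 53 genes at an unadjusted p under 0.05. For Rhox5 this difference was 0.16 (SE 0.672), and for Gstm7 0.58 (SE 0.445). The model with clones as units had no term for the clone, so footprints and RNA of a clone were not paired. The spread between clones therefore entered the error and widened these SEs. The lack of calls in this test does not show that footprints and RNA changed equally.

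**Figure D3:**
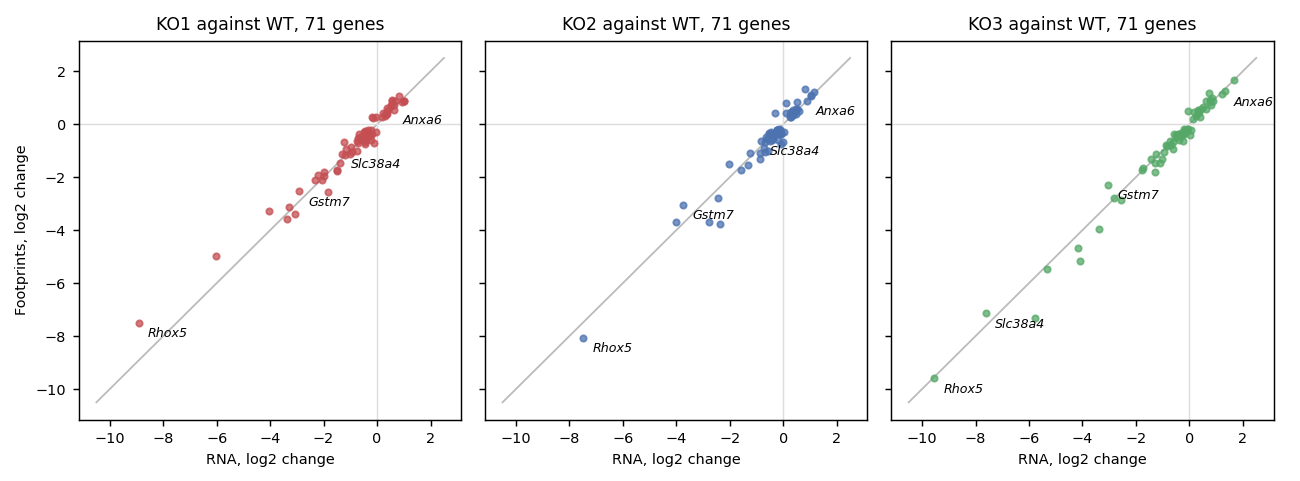
Log2 footprint change (vertical) against log2 RNA change (horizontal) of the 71 genes with both tests among the genes called in each clone in 1 direction, with 1 panel per clone and a grey line where both are equal. Points follow the line in each panel, with Rhox5 at the lower left at -7.49, -8.07 and -9.59 for footprints.

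No gene of the EEF1B complex was called with clones as units. Eef1d had 280 and 267 CPM in WT cells, with KO1 at 225 and 213, KO2 at 294 and 279 and KO3 at 187 and 162. Its footprints fell in KO1 (-0.31, SE 0.078) and KO3 (-0.65, SE 0.0764) and had 0.07 (SE 0.0727) in KO2, and the clones differed (edgeR adjusted p = 4.32e-10). With clones as units the log2 change of Eef1d was -0.27 (SE 0.216, unadjusted p = 0.262). It was -0.48 (SE 0.206) with transcripts chosen by Ribo-seq counts, -0.47 (SE 0.169) without KO2 and -0.11 (SE 0.16) without KO3. The Eef1d transcript counted in the main test has 543 codons. The part of the deleted exon in these Eef1d changes was not tested. The change with clones as units was 0.04 (SE 0.157) for Eef1b2, -0.06 (SE 0.131) for Eef1g and 0.17 (SE 0.167) for Vars. Taken singly, the clones did not move alike. Eef1b2 rose in KO2 (0.255) and fell in KO3 (-0.19), with 0.01 in KO1. Eef1g fell in KO3 (-0.27), with 0.02 in KO1 and 0.01 in KO2. Vars rose in KO1 (0.40), with 0.12 in KO2 and -0.07 in KO3. The clones differed for each of these genes (edgeR adjusted p = 4.73e-07, 0.000144 and 1.61e-06). Of the elongation factors, Eef1a1 had 0.00 (SE 0.0915) with clones as units. Eef2, the translocation factor, rose in KO1 (0.23) and KO3 (0.19) and fell in KO2 (-0.26). The ER anchor Ktn1 had -0.30 (SE 0.154, unadjusted p = 0.0918), with all 3 clones below WT and KO3 called (-0.44). Rrbp1, the ribosome-binding protein of the ER membrane, fell in KO1 (-0.45) and had 0.07 in KO2 and 0.02 in KO3.

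Of the gene lists, secreted liver proteins and interferon genes are given first, beside 1607 higher and 1431 lower of all 10763 genes. Of 21 plasma proteins tested, 9 were lower and 1 higher in all clones, with medians of -0.65 for KO1, -0.60 for KO2 and -0.24 for KO3. Of them 3 (Fgb, Angptl4 and Igfbp1) were called in each. Abundant ones were not all lower in each clone. Alb, serum albumin, fell in KO1 (-1.26) and KO2 (-0.76) and rose in KO3 (1.10). Trf, transferrin, fell in KO1 (-1.19) and KO3 (-0.94) and was also below WT in KO2, at -0.17. Of these 21 genes, 20 differed between the clones.

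Of 25 genes of the interferon response and antigen presentation, 15 were higher and 3 lower in all clones, and 0 were called in each clone. Their medians were 0.36 in KO1, 0.04 in KO2 and 0.24 in KO3, beside 0.01, 0.00 and 0.01 over all genes. Psmb8, a subunit of the immunoproteasome, rose in KO1 (1.14) and KO2 (0.93) and had 0.33 in KO3 (edgeR adjusted p = 0.145). Ifih1, a sensor of double-stranded RNA, rose in KO1 (1.58) and KO3 (0.99) and had 0.01 in KO2. H2-D1, a class I antigen-presenting molecule, rose in KO1 (0.36) and KO3 (0.31) and had 0.16 in KO2. Between clones, 16 of the 25 genes differed. Ifitm3, an interferon-induced membrane protein that was not on the list, fell in each clone (-0.29, -0.24 and -0.19).

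Of 54 nuclear-encoded respiratory chain genes, 10 were higher and 1 lower in all clones, with medians of 0.17, 0.03 and 0.08. Of 34 cholesterol and fatty acid synthesis genes, 1 was higher and 9 lower, but the median was -0.44 in KO1 beside 0.06 in KO2 and -0.07 in KO3. Of 32 ATF4 targets, 1 was higher and 6 lower, with -0.58 in KO1 beside 0.05 and 0.08. Ribosomal proteins had medians from -0.01 to 0.05 for the 48 of the large and from 0.00 to 0.09 for the 33 of the small subunit, and 3 of 24 genes for ER chaperones and the unfolded protein response were higher and 1 lower in all clones.

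**Figure D4:**
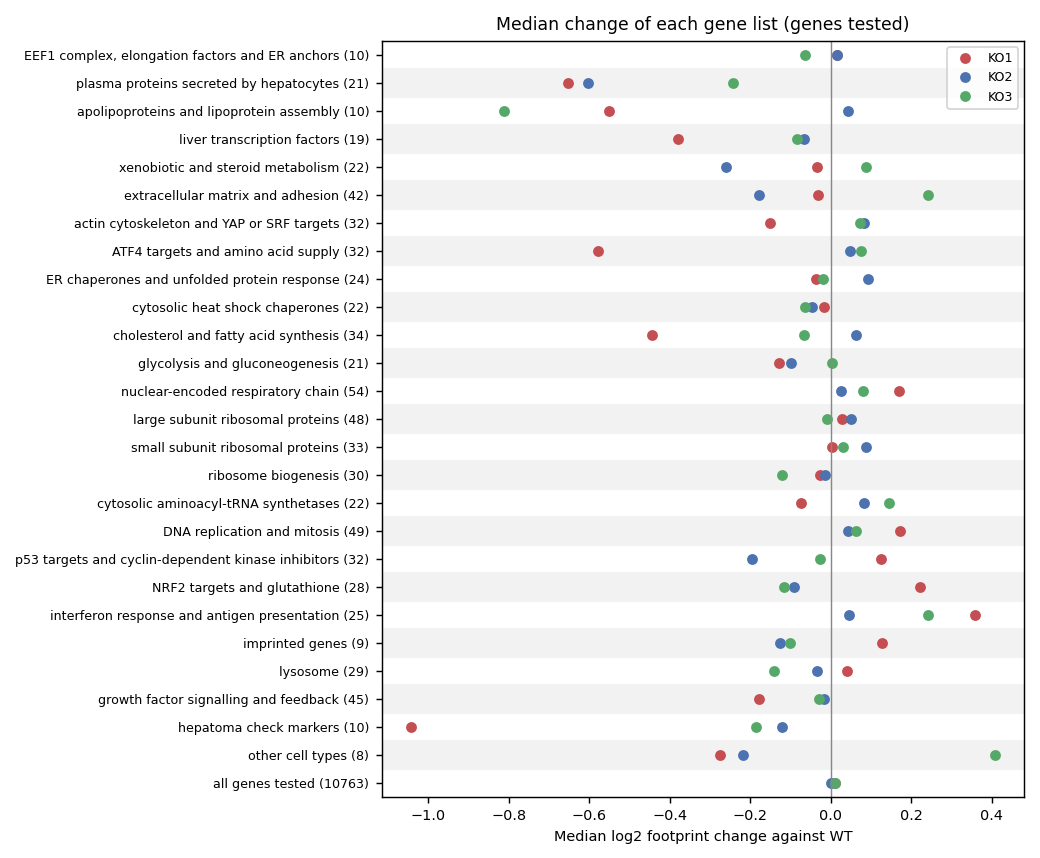
Median log2 footprint change against WT of the tested genes of each list (their number in brackets), with 1 point per clone, on a linear axis. The 3 clones lie apart in most lists. The medians of plasma proteins, at -0.65, -0.60 and -0.24, lie left of the 0.00 to 0.01 of all genes. In KO3, 8 plasma proteins were called higher and 8 lower.

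The median change of some chromosomes was away from 0 in single clones, and some of the common genes lay on these chromosomes. In KO1 the median footprint change was -0.42 over 770 genes of chromosome 7, -0.34 on chromosome 9 and -0.32 on chromosome 16. In KO2 it was 0.27 on chromosome 1, 0.27 on chromosome 8 and -0.27 on chromosome 10. In KO3 it was 0.33 on chromosome 18, 0.30 on chromosome 12, 0.22 on chromosome 8 and -0.31 on chromosome 6. Both libraries of a clone agreed within 0.06 on each of these, and RNA medians were alike, for example -0.44 on chromosome 7 in KO1. Of the 22 genes that rose in each clone, 8 were on chromosome 8, among them Kifc3, Fgfr1, Sorbs2, Lsm4 and Lamp1. Of the 57 that fell, 8 were on chromosome 7. Of the 10763 genes tested, chromosome 8 held 572 and chromosome 7 held 770.

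When the chromosome median of each clone was removed, a step chosen after these medians were seen, Rhox5 remained the 1 gene called with clones as units. The genes called in each clone in 1 direction then numbered 61, of which 15 were higher and 46 lower, and 45 of them were among the original 79. Kifc3 and Sorbs2 were kept. Zhx2 kept its direction (1.12, 0.73 and 0.56) and missed the threshold in KO3 (edgeR adjusted p = 0.0596), as did Masp1 in KO1 (-0.27, adjusted p = 0.388). Fgfr1 (0.25, adjusted p = 0.442) and Lsm4 (0.20, adjusted p = 0.265) missed it in KO2. Ctsd then had 0.13 in KO1 beside -0.24 in KO2 and -0.23 in KO3, Ifitm3 had 0.13, -0.26 and -0.19, and Lamp1 had 0.27, 0.00 and -0.02. In KO1, Gm49369 (0.14), Gtf3c1 (0.05) and Tsen34 (0.03) turned their direction too, as did Marc2 (-0.01) in KO2. Serpinb7, Jmjd1c, Odc1, Sin3b, Colgalt1 and Ctsl kept their direction but missed the threshold in KO2 (edgeR adjusted p of 0.116 or more). Sin3b (0.08, adjusted p = 0.592) and Colgalt1 (0.06, adjusted p = 0.644) missed it in KO3 too. Others kept their direction but lost the call in 1 or more clones. Gprc5a (-0.10, edgeR adjusted p = 0.338), Pcgf1, Pglyrp1, Fasn and Sgms1 missed the threshold in KO3. Plp2, Gm6169 and Pvr missed it in KO1. Trp53inp1, Fosl2, Vta1, Arid5b, Socs2, Pitrm1 and Tmem171 missed it in KO2. Rab11fip5 missed it in KO1 and KO2, and Gse1 in KO2 and KO3. The part of the chromosome shifts in the single gene changes was not tested further.

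**Figure D5:**
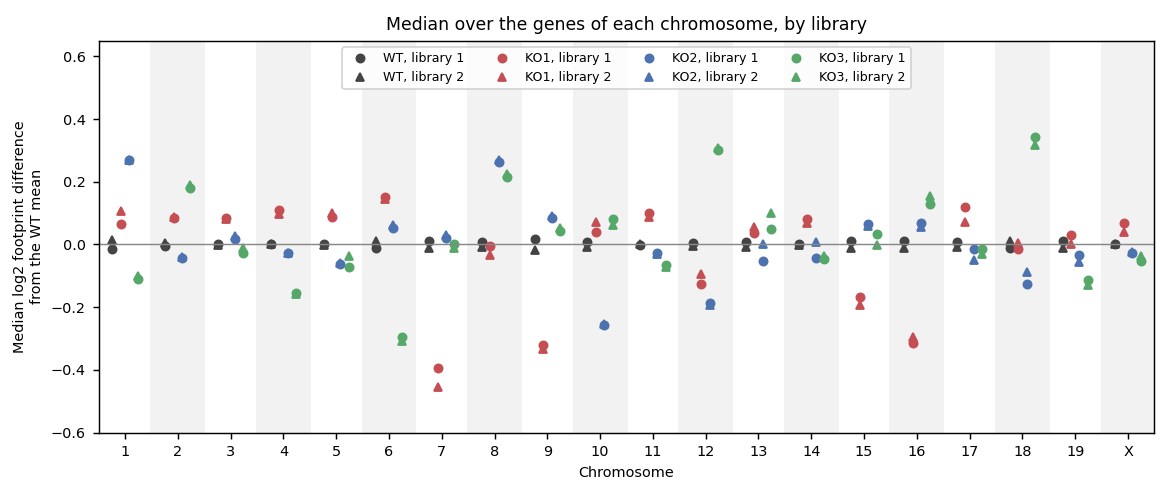
Median over the genes of each chromosome of the log2 footprint difference from the WT mean, with 1 point per library, circles for library 1 and triangles for library 2. WT points lie at 0 and the 2 libraries of a clone lie together, with KO1 low on chromosomes 7, 9 and 16, KO2 high on 1 and 8, and KO3 high on 12 and 18.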

How the data were processed

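Ribo-seq and RNA-seq counts of 16 libraries were used. Per the paper's methods and the submitters' processing notes, the authors trimmed reads with fastp 0.21.0, removed noncoding RNA reads and aligned the rest to mm10 with STAR 2.7.0a. The deposited values are raw counts per transcript (GENCODE vM23), set at the A site, without the first and last 5 codons. A read that fits several transcripts is counted on each. The sum over the 2 libraries of a clone was 1 unit, against WT libraries 1 and 2. Tests were made in R 4.3.3 with edgeR 4.0.16 (TMM, filterByExpr, quasi-likelihood F test, two-sided, Benjamini-Hochberg over all genes), with DESeq2 1.42.0 and limma 3.58.1 as alternatives. The 8-library fit had line as factor. The methods call the replicates biological, and where they are not separate cultures p-values measure only the spread between libraries. Positions are from GENCODE vM21 (66651 of 67139 transcripts matched) and sequences from GRCm38. Members and gene lists were chosen with earlier results of these data known. Named genes had the same sign in 3 clones, KO libraries all beyond both WT libraries and a mean of at least 50 counts per library in the higher group (WT or KO), ranked by their smallest change, 12 per direction, besides the EEF1B complex genes.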

Additional observations from a re-analysis of the deposited data

Results flagged for a closer look

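For 12 of the named genes, the 2-degree-of-freedom edgeR quasi-likelihood test rejected equal footprints in KO1, KO2 and KO3. The size of a shared change thus differed between clones. The adjusted p was 0.0282 for Vwa5a and 4.63e-10 for Anxa6, the 2 higher genes among them. Of the lower genes, it was 2.47e-08 for Tff2, 2.11e-06 for Capg, 0.0011 for Lce1h, 1.54e-07 for Plb1, 2.81e-06 for Lce1g, 7.62e-11 for Slc6a13, 2.74e-12 for Fgb, 2.42e-13 for Slc38a4, 0.000109 for Gpr155 and 6.14e-09 for Masp1. Rhox5 and Gstm7 were the lower genes for which equality was not rejected. The error of this test is the spread between the 2 libraries of a clone.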

How the results depend on the processing

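The count of genes called with clones as units, 1 by the main test, was 4 by DESeq2 and 0 with at least 10 counts in every library, a filter that Rhox5 cannot pass, or with WT as 1 unit. It was 998 with the 8 libraries as units, which takes libraries of a clone as replicates. Leaving out a library or clone gave 0 to 1. The direction count was 4710 of 15469 genes without a filter on low counts, since more genes were then counted, and its balance turned from 1607 higher and 1431 lower to 1934 higher and 2776 lower. Genes called in each clone in 1 direction numbered 20 with libraries thinned to the smallest and 33 to 87 with a library left out, with 33 without WT replicate 1, 49 without KO1 replicate 1 and 46 without KO2 replicate 1. With chromosome medians removed, KO2 had 783 calls. RNA calls with clones as units were 0 with WT as 1 unit and 2216 with libraries as units. Calls of footprints relative to RNA were 0 in all settings. With clones as units, neither Eef1d nor any of the 24 ranked genes turned its direction, and Rhox5 lost its call in 4 settings, all given above. Replicate numbers were not taken as pairs in the main fits. The deviations of same-numbered libraries correlated weakly but positively for every pair of lines, at 0.083 to 0.148 over 5204 genes. These values do not speak against pairing, which the replicate block allows for. With the replicate block and libraries as units, 1266 footprint and 2700 RNA genes were called, and all 79 genes called in each clone were kept among 104. The smallest library, KO1 replicate 2, limits genes of few counts.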
